A study of Nematostella vectensis with 66 samples.

Results

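Transcript levels of whole adult starlet sea anemones (Nematostella vectensis) sampled at ZT12, 17 h on the clock, were compared with those of animals sampled 6 h earlier on the same day, at ZT6, 11 h on the clock. The comparison takes 13 of the 66 libraries of a field series with 10 hourly samplings, and the libraries were taken by the hour in their labels. ZT6 had 4 libraries of single animals (A to D) and 2 libraries of pools (F and G), and ZT12 had 4 of single animals (A to D) and 3 of pools (E to G). Each pool held 2 animals. All animals came from a laboratory stock kept for several generations that descends from a Massachusetts salt marsh, and all had been set out in mesh pens on the sediment of a tidally restricted pool there. The labels give no treatment, no genotype and no strain that separates the hours, and do not say from which pen an animal came or what the tide was, so the hour cannot be told apart from a pen or a tidal state shared by its libraries. Each replicate is its own animal or its own pool.

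Nematostella vectensis is a burrowing anemone of estuarine pools, where light, temperature, salinity and water level change through the day. Cnidarians have a circadian clock built on transcription factors of the CLOCK and CYCLE type and on cryptochromes, and in laboratory animals of this species light and dark cycles set daily rhythms of locomotion and of transcripts. The deposited table names gene models by identifier and does not pair them with gene symbols, so clock genes, light sensors and cell type markers could not be picked out, and no function is given to any identifier below. In whole animals, fewer cells of a type and less RNA per cell cannot be told apart.

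The unit of the file is the count of reads per gene model. Levels are given as CPM (counts scaled to the library total and multiplied by 1e6), scaled with TMM factors and not corrected for gene length. The 13 libraries held 521490 to 744880 counts. Totals were 640130 ± 79880 at ZT6 (SD, n = 6) and 617754 ± 84875 at ZT12 (SD, n = 7), and a two-sided exact permutation test over the 13 libraries gave p = 0.609 (0.826 adjusted over 3 library measures). The number of gene models with a count was 17154 ± 529 (SD, n = 6) against 17288 ± 622 (SD, n = 7), with an exact permutation p of 0.689 (0.826 adjusted). The 100 most abundant gene models held 29.4% ± 2.82 of the counts at ZT6 and 29.1% ± 1.67 at ZT12, with an exact permutation p of 0.826. Of the gene models, 11186 had a count in all 13 libraries and 1551 in none. None was silent in every library of one hour and present in every library of the other.

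Between ZT6 and ZT12, 51 gene models rose and 158 fell, together 1.91% of the 10916 tested (0.467% up and 1.45% down). Calls rest on edgeR's quasi-likelihood F test across the 66 libraries, adjusted for sample type, at a Benjamini-Hochberg threshold of 0.05. At an unadjusted p below 0.05, 653 were higher and 864 lower. The rises were mostly moderate, with a median log2 change of 0.87 (1.82-fold) and quartiles of 0.76 and 1.16. The falls were larger, with a median of -1.13 (2.2-fold) and quartiles of -1.6 and -0.85. Over all genes tested the median was 0.01, with quartiles of -0.28 and 0.29. The change was over 2-fold in 20 of the 51 rises and 98 of the 158 falls, and over 4-fold in 0 of the rises and 20 of the falls. The count of calls depended on single libraries. Leaving out any 1 of 9 libraries (ZT6 B, C, D and G, and ZT12 A, B, D, F and G) left 11 to 32 rises and 49 to 101 falls, the fewest without ZT6 C, and leaving out ZT6 A gave 73 and 209. Keeping rare gene models left 6 rises and 50 falls, and fitting the 13 libraries alone 13 and 56.

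Among the gene models that rose, NVE12135 had the smallest p. At ZT6 it stood at 23.2, 20.01, 8.91 and 15.02 CPM in the single animals A to D and at 25.99 and 17.3 CPM in the pools F and G. At ZT12 it stood at 60.4, 55.3, 46.1 and 50.4 CPM in the single animals A to D and at 52.2, 43.7 and 62.7 CPM in the pools E to G. The lowest ZT12 library lay above the highest ZT6 library. The log2 change was 1.51 (SE 0.27, edgeR adjusted p = 0.00141), a 2.85-fold rise. The intervening hours were intermediate or high, with 29.4 ± 9.49 CPM at ZT7, 41.4 ± 12.3 at ZT8, 45.4 ± 4.94 at ZT9, 30.4 ± 14.4 at ZT10 and 45.8 ± 11.05 at ZT11 (SD, n = 7 each).

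NVE15059 was the second of the rising gene models. Its ZT6 levels were 34.8, 23.6, 42.3 and 27.3 CPM in the single animals A to D and 17.9 and 18.7 CPM in the pools F and G. Its ZT12 levels were 58.8, 43.2, 52.7 and 61.7 CPM in the single animals A to D and 108, 49.6 and 58.5 CPM in the pools E to G. The groups did not overlap, but ZT12 single animal B and ZT6 single animal C were within 1 CPM of each other, and ZT12 pool E stood far above the rest. The log2 change was 1.17 (SE 0.25, edgeR adjusted p = 0.00759). Fitted apart, it was 0.78 in single animals (SE 0.25, edgeR adjusted p = 0.121) and 1.97 in pools (SE 0.51, edgeR adjusted p = 0.415), and neither passed. The difference between pools and single animals was 1.21 (SE 0.51, edgeR adjusted p = 0.679). Its hourly means lay at 31.8 ± 5.0, 42.7 ± 15.1, 40.2 ± 9.5, 43.9 ± 15.1 and 46.4 ± 8.42 CPM from ZT7 to ZT11 (SD, n = 7 each) before 61.8 ± 21.4 at ZT12.

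NVE3596 had the smallest p of the gene models that fell. At ZT6 it stood at 63, 74.6, 73.5 and 101 CPM in the single animals A to D and at 60.1 and 80.8 CPM in the pools F and G. At ZT12 it stood at 38.6, 39.7, 48.7 and 39 CPM in the single animals A to D and at 23.2, 21.8 and 29.3 CPM in the pools E to G. The groups were apart, and the 3 pools of ZT12 were the lowest of the 13 libraries. The log2 change was -1.13 (SE 0.2, edgeR adjusted p = 0.00141). It passed through the same low level once before, at 34.3 ± 6.13 CPM at ZT9 (SD, n = 7) against 34.3 ± 9.85 at ZT12, and stood at 55.5 ± 14.3 and 53.9 ± 15.1 CPM at ZT10 and ZT11.

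NVE14749 fell further. Its ZT6 levels were 71.3, 118, 194 and 147 CPM in the single animals A to D and 89.3 and 96.6 CPM in the pools F and G. Its ZT12 levels were 43.6, 29.4, 35.6 and 40.6 CPM in the single animals A to D and 29, 35.7 and 30.7 CPM in the pools E to G. The ZT6 animals differed widely among themselves, while the ZT12 libraries lay close together. The log2 change was -1.76 (SE 0.31, edgeR adjusted p = 0.00141), a 3.39-fold fall. At ZT9 it had been at 39 ± 12.1 CPM and at ZT10 at 104.5 ± 69.6 CPM (SD, n = 7 each), the widest spread of any hour.

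**Figure D1:**
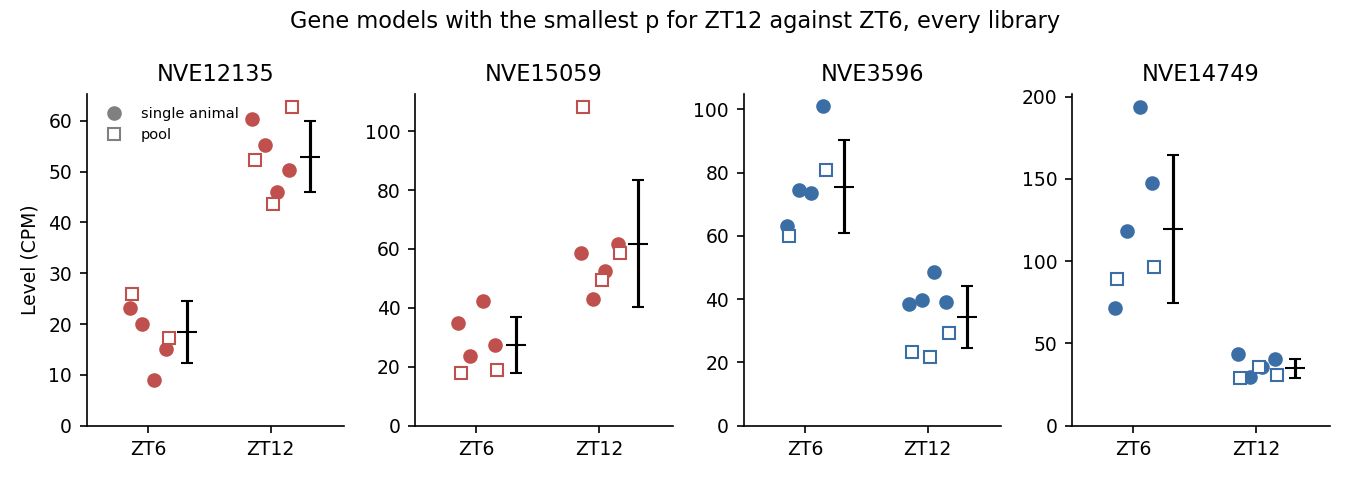
Level in CPM (y axis, from 0, on a scale of its own in each panel) of the 2 rising and 2 falling gene models with the smallest p, in each single animal (filled circles) and pool (open squares) at ZT6 and ZT12, with the mean and SD over the libraries of the hour beside them. In all 4 panels the hours do not overlap, and in NVE15059 the ZT12 pool E at 108 CPM stands above the other libraries.

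Complete separation of the hours was not the rule among the called gene models. In 22 of the 51 rises every ZT12 library lay above every ZT6 library, and in 50 of the 158 falls every one lay below. Over all genes tested, 55 (0.504%) were separated upwards and 76 (0.696%) downwards. The called gene models were more abundant than most, with a median of 47.2 CPM for the rises and 72.2 CPM for the falls against 25.8 CPM over all genes tested, and 1 rise and 2 falls had a mean under 10 CPM where 1408 of all genes had. Together the falling gene models held 2.96% ± 0.815 of the counts of a ZT6 library (SD, n = 6) and 1.38% ± 0.189 of a ZT12 library (SD, n = 7). The rising ones held 0.303% ± 0.0494 and 0.54% ± 0.0452. These shares describe gene models chosen for their change and were not tested. Spread between libraries of an hour was much alike at both times, with a median SD of log2 CPM of 0.458 at ZT6 and 0.434 at ZT12 over all genes, 0.469 and 0.416 over the falls, and 0.344 and 0.323 over the rises.

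Libraries of the same hour differed in how far they carried the change. The level of a set in a library is given here as the median over its gene models of log2 CPM relative to the gene's mean of the 10 hours. The falling set stood highest at ZT6 in the single animals C (0.79) and B (0.75), with the pool G at 0.63 and the single animal D at 0.59. The single animal A (0.1) and the pool F (0.15) were the lowest of ZT6. At ZT12 the set ran from -0.66 in the single animal A to -0.3 in the single animal C and -0.34 in the pool E. The 2 hours stayed apart in this measure, as the choice of the gene models would lead to, but the ZT6 libraries filled a wider range. The rising set ran from -0.55 in the single animal D to -0.16 in the single animal A at ZT6 and from 0.2 in the single animal C to 0.59 in the single animal A at ZT12.

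The course from ZT7 to ZT11 is read in libraries that the contrast does not use, while the levels at ZT6 and ZT12 chose the sets and are given as a description. The falling set had its hourly median over gene models at 0.48 at ZT6, -0.01 at ZT7, -0.19 at ZT8 and -0.58 at ZT9. It was back at -0.02 at ZT10 and -0.11 at ZT11 before -0.55 at ZT12, so it was low at 2 separate hours, ZT9 and ZT12. Of its 158 gene models, 76 (48.1%, against 14.3% of all genes tested) had their lowest hour at ZT9. Another 69 (43.7%, against 7.81%) had it at ZT12, a number that follows in part from how they were chosen. The rising set went from -0.42 at ZT6 to -0.01 at ZT7, 0.17 at ZT8 and 0.28 at ZT9, stood at 0.06 and 0.08 at ZT10 and ZT11, and reached 0.43 at ZT12. ZT12 was the highest of the 10 hours for 32 of its 51 gene models (62.7%, against 8.21% of all genes tested), which the choice favours. ZT9 was the highest for 10 (19.6%), much the same share as over all genes tested (19.3%).

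The return at ZT10 was not shared by all of its libraries. The falling set stood at 0.67 in the ZT10 pool E, 0.4 in the single animal A and 0.36 in the single animal D, within the range of the ZT6 libraries. In the other 4 ZT10 libraries it stood at -0.14 (single animal B), -0.28 (pool F), -0.39 (pool G) and -0.43 (single animal C). At ZT7 the pool E stood at 0.83 and the single animal A at 0.25, and the other 5 libraries at -0.33 to -0.09. At ZT9 all 7 libraries lay between -0.65 and -0.39. In the rising set the same libraries stood apart in the other direction, with -0.51 in the ZT7 pool E and -0.31 in the ZT10 single animal A.

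**Figure D2:**
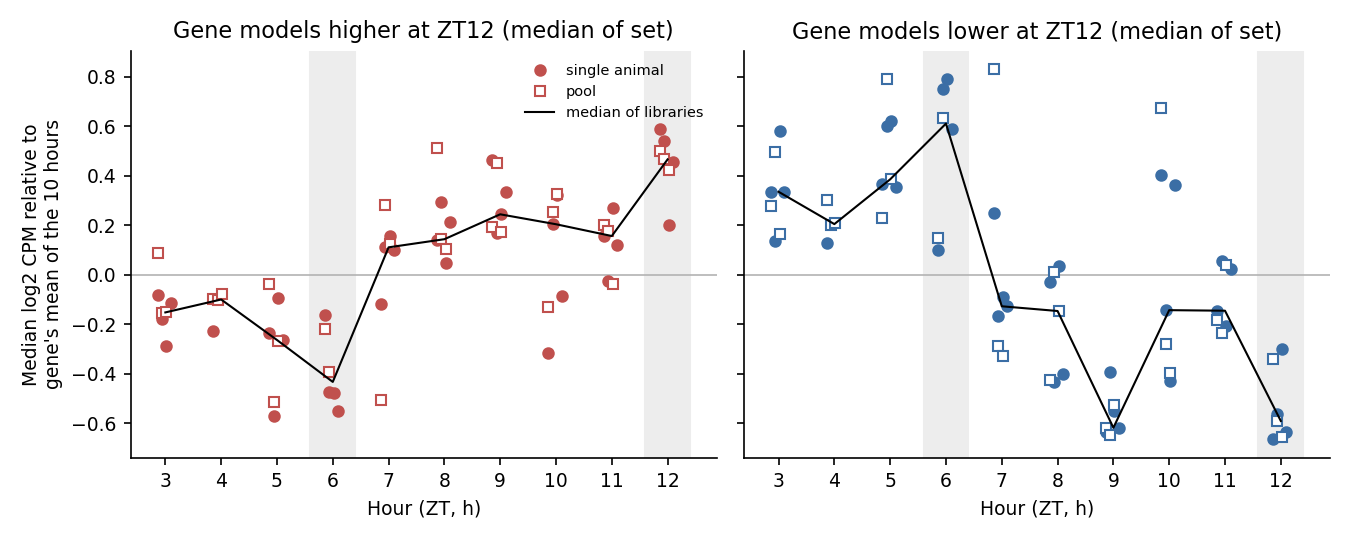
Median over the 51 gene models called higher at ZT12 (left) and the 158 called lower (right) of log2 CPM relative to each gene's mean of the 10 hours (y axis), for each of the 66 libraries by hour (x axis, ZT in h). Filled circles are single animals, open squares are pools, the line joins the hourly medians of libraries, and grey bands mark ZT6 and ZT12, the hours that chose the sets. At ZT10 the falling set runs from -0.43 to 0.67, and at ZT9 from -0.65 to -0.39.

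ZT11 and ZT7, the neighbouring hours inside the interval, share no library with ZT6 and ZT12. Between them 10 gene models (0.0916% of those tested) passed the edgeR test, all of them lower at ZT11, and 993 had an unadjusted p below 0.05. The gene models called between ZT12 and ZT6 went the same way in part, with 114 of 158 falls (72.2%) also lower at ZT11 than at ZT7 and 33 of 51 rises (64.7%) also higher. Over all genes 52.3% were lower and 47.7% higher. Their median changes were -0.19 and 0.11 log2 units, and 29 of the falls (18.4%, against 5.08% of all genes) and 6 of the rises (11.8%, against 4.01%) had an unadjusted p below 0.05 in the same direction. DESeq2 called 49 gene models in this contrast and limma with quality weights 44.

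Hours 6 h apart form 3 other pairs in the series, none of which shares a library with another pair. ZT9 against ZT3 gave 364 rises and 760 falls (10.3% of genes tested), ZT10 against ZT4 gave 58 and 125 (1.68%), and ZT11 against ZT5 gave 61 and 91 (1.39%). ZT4 had 4 libraries. The falling gene models of ZT12 against ZT6 were also lower at ZT9 than at ZT3 in 155 of 158 cases (98.1%, against 49.3% of all genes). Their median there was -0.87 log2 units, and 95 of them passed the test, where 760 of all 10916 genes tested did in that direction. They were lower at ZT11 than at ZT5 in 148 of 158 cases (93.7%, against 51.4%), with a median of -0.68, and 29 passed (91 of all genes). They were lower at ZT10 than at ZT4 in 91 of 158 cases (57.6%, against 44.4%), with a median of -0.08, and 4 passed (125 of all genes). The rising gene models went the same way in 47 of 51 cases from ZT3 to ZT9 (92.2%), 45 from ZT5 to ZT11 (88.2%) and 38 from ZT4 to ZT10 (74.5%), with medians of 0.4, 0.43 and 0.34. The corresponding shares over all genes were 50.7%, 48.6% and 55.6%. Of the rises, 13, 4 and 0 passed the test in these 3 pairs, where 364, 61 and 58 of all genes tested passed upwards. No called gene model passed in the opposite direction in any of them.

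**Figure D3:**
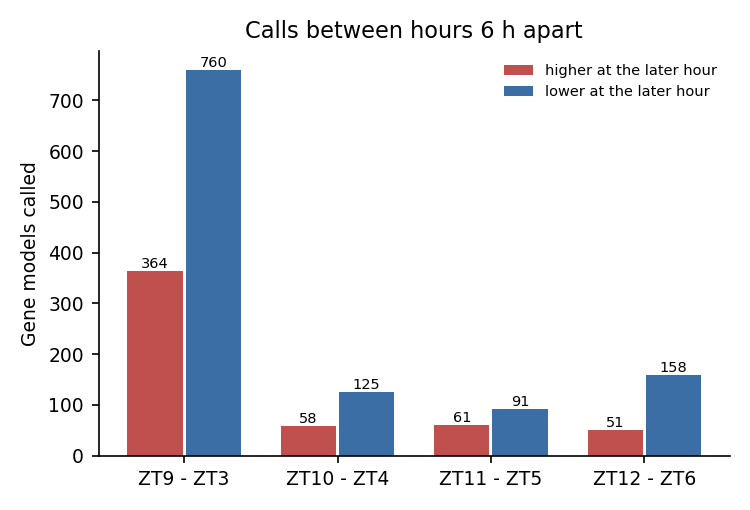
Number of gene models called (y axis, from 0; edgeR adjusted p below 0.05) higher (red) and lower (blue) at the later hour for the 4 pairs of hours 6 h apart (x axis). ZT12 against ZT6 has 51 and 158 calls and ZT9 against ZT3 has 364 and 760, and falls outnumber rises in all 4 pairs.

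Whether the change from ZT6 to ZT12 differed from that of another pair was tested gene by gene. Against ZT9 minus ZT3 the change differed for 2 gene models (0.0183% of those tested). NVE19553 rose from 10.6 ± 4.65 CPM at ZT3 to 48.4 ± 10 at ZT9 (SD, n = 7 each), a log2 change of 2.2 (SE 0.32). From ZT6 to ZT12 it went from 44 ± 18.5 (SD, n = 6) to 30.1 ± 7.85 CPM (SD, n = 7), a log2 change of -0.55 (SE 0.3) that did not pass. The difference between the 2 changes was -2.75 (SE 0.44, edgeR adjusted p = 0.000437). NVE23694 went from 64.2 ± 11.56 to 159 ± 13.7 CPM over the first pair and from 96.8 ± 24.7 to 94.1 ± 27.4 CPM over the second, a difference of -1.35 (SE 0.27, edgeR adjusted p = 0.0344). The SE of this difference had a median of 0.44 log2 units over all genes. DESeq2 gave 7 gene models, and 709 had an unadjusted p below 0.05 in edgeR. Against ZT10 minus ZT4 the change differed for 7 gene models (0.0641%), where DESeq2 gave 113 and limma with quality weights 84. Against ZT11 minus ZT5 it differed for 0 (0%) in edgeR, DESeq2 and limma, with 533 genes at an unadjusted p below 0.05 in edgeR.

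Single animals and pools were then fitted apart, so that each kind of library could be read in the other with no library in common. Single animals gave 17 rises (0.156%) and 70 falls (0.641%). Of these 87, 67 were also called with all libraries in the fit, which holds the same single animals. Pools gave 0 calls (0%) in edgeR, with 686 genes at an unadjusted p below 0.05 and a smallest adjusted p of 0.345. Limma with quality weights also called 0 and DESeq2 31. The SE of a change had a median of 0.54 log2 units in pools and 0.39 in single animals. Of the 70 falls of single animals, 65 (92.9%) were also lower in pools at ZT12, against 45.7% of all genes, with a median of -0.92 log2 units, and 13 (18.6%, against 3% of all genes) had an unadjusted p below 0.05 in that direction. Of the 17 rises, 12 (70.6%, against 54.2%) were also higher in pools, with a median of 0.25, and 2 (11.8%, against 3.28%) had an unadjusted p below 0.05 in that direction. The calls of single animals rested on few libraries: they went to 81 rises and 200 falls without ZT6 A, and to 1 to 5 rises and 4 to 14 falls without ZT6 B or C or ZT12 A, B or D. Without ZT6 D there were 8 rises and 50 falls, and without ZT12 C 29 and 83.

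NVE10523 and NVE11461 had the smallest p among the falls of single animals. NVE10523 stood at 69.6, 196.5, 305 and 126 CPM in the ZT6 animals A to D and at 13.4, 20.7, 35.6 and 34.1 CPM in the ZT12 animals A to D. The groups were apart, and the ZT6 animals spread over a wide range. Its log2 change was -2.72 in single animals (SE 0.45, edgeR adjusted p = 0.00643) and -2.07 in pools (SE 1.11, edgeR adjusted p = 0.751). NVE11461 fell by 1.98 in single animals (SE 0.34, edgeR adjusted p = 0.00643), from 29.8, 29.1, 42.3 and 25.9 CPM at ZT6 to 13.4, 6.91, 5.27 and 6.5 CPM at ZT12. With all libraries in the fit its change was -1.42 (SE 0.43, edgeR adjusted p = 0.0634), so it is not among the 158 falls called there. In pools its change was -0.53 (SE 0.93, edgeR adjusted p = 0.925), where the ZT6 pools were unlike each other at 8.12 and 27.4 CPM. Fitted on the 8 single-animal libraries of the 2 hours alone, NVE10523 and NVE11461 had nearly the same changes (-2.72 and -1.98) but did not pass (edgeR adjusted p = 0.130 and 0.125).

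NVE3918 and NVE26101 led the rises of single animals. NVE3918 stood at 18.2, 16.4, 20 and 16.4 CPM in the ZT6 animals A to D and at 134, 65.6, 57.9 and 27.6 CPM in those of ZT12, where animal A stood alone. Its log2 change was 2.03 in single animals (SE 0.38, edgeR adjusted p = 0.00982) and 0.65 in pools (SE 0.56, edgeR adjusted p = 0.799). Without ZT12 animal A it was 1.52, with an edgeR adjusted p of 0.0698. NVE26101 stood at 16.6, 20, 15.6 and 20.5 CPM in the ZT6 animals and at 36.9, 43.2, 36.9 and 42.2 CPM in the ZT12 animals, which did not overlap. In pools the 2 hours overlapped for NVE26101, with 21.1 and 20.2 CPM at ZT6 and 15.5, 23.8 and 29.3 CPM at ZT12. Its changes were 1.14 (SE 0.22, edgeR adjusted p = 0.0141) and 0.16 (SE 0.44, edgeR adjusted p = 0.959). The call of NVE26101 in single animals was lost in 4 of 13 settings: without ZT6 animal C, without ZT12 animal D, with no filter and with the 8 libraries alone (edgeR adjusted p = 0.0812, 0.0526, 0.0727 and 0.154). With the 8 libraries alone the call of NVE3918 was also lost (edgeR adjusted p = 0.139).

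The difference of the change between pools and single animals had its own test, and 0 gene models (0%) passed it in edgeR, with 749 at an unadjusted p below 0.05 and a smallest adjusted p of 0.424. Limma with quality weights called 0 and DESeq2 29. For NVE3918 the difference was -1.36 log2 units (SE 0.66, edgeR adjusted p = 0.679), and for NVE26101 -0.96 (SE 0.43, edgeR adjusted p = 0.679).

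**Figure D4:**
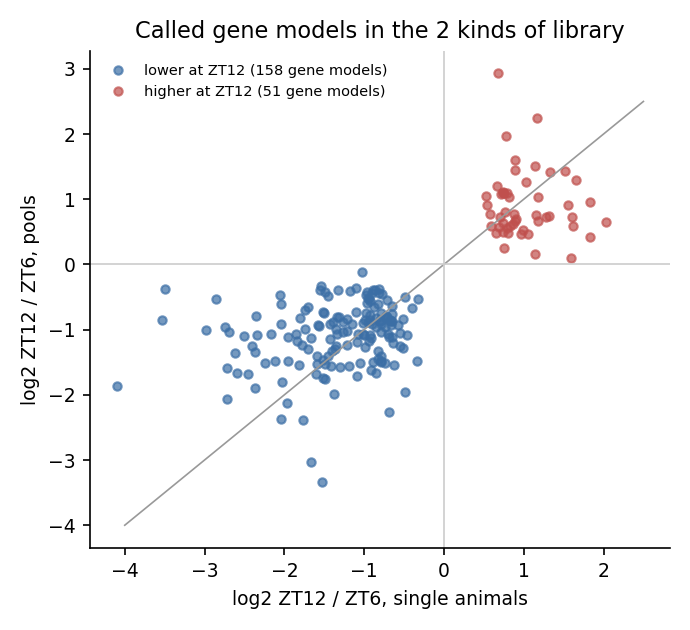
Log2 change from ZT6 to ZT12 in the fit of single animals (x axis) and in the fit of pools (y axis) for the 158 gene models called lower (blue) and the 51 called higher (red) with all libraries in the fit; the diagonal marks equal change. Every point lies on its own side of 0 on both axes, which the choice of gene models from both kinds of library favours, and the medians are -1.16 and -1.03 for the falls and 0.89 and 0.76 for the rises.

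A level that does not pass the test at ZT12 has not been shown to be the same as at ZT6, so a return was defined by an interval. For 1573 gene models (14.4% of those tested) the 95% interval of the log2 change lay wholly within 1.5-fold either way, and 209 were called changed. The remaining 9134 (83.7%) were neither: they did not pass the adjusted test, and their interval reached beyond 1.5-fold. Movement between the 2 hours was found in the libraries of ZT7 to ZT11 alone, where 666 gene models (6.1%) differed between the 5 hours in the edgeR test. Of these 666, 153 (23%) had ZT12 within 1.5-fold of ZT6, 66 were called lower, 5 were called higher and 442 were neither. Read the other way, movement within ZT7 to ZT11 was called for 66 of the 158 falls (41.8%), 5 of the 51 rises (9.8%) and 153 of the 1573 within 1.5-fold (9.73%). Without the ZT9 pool E the 666 went to 424 and the 153 to 101.

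The 153 gene models that moved and came back make up 1.4% of the genes tested. They were abundant, with a median of 179 CPM over all libraries against 25.9 CPM for all genes tested. Only well-measured gene models have an interval narrow enough to enter this group. Their change from ZT6 to ZT12 had a median size of 0.09 log2 units, and their range over the hourly means of ZT7 to ZT11 a median of 0.67, with quartiles of 0.56 and 0.8. In 106 of them the mean of ZT7 to ZT11 lay below that of ZT6 and ZT12. The median of these 106 was 0.12 at ZT6, 0.14 at ZT7, -0.07 at ZT8, -0.36 at ZT9, -0.17 at ZT10, 0.08 at ZT11 and 0.04 at ZT12. ZT9 was the lowest of the 5 inner hours for 64 of them and ZT10 for 24. The same shares of the 5 inner hours were not computed over all genes tested, so these counts only describe the group. Of the 10 hours, ZT9 was the lowest for 14.3% of all genes tested and ZT10 for 8.07%. The other 47 of the 153 had a mean of ZT7 to ZT11 above that of the ends, a split by sign that was not tested. ZT10 was their highest inner hour in 26 cases and ZT7 their lowest in 24. Their median was -0.08 at ZT6, -0.19 at ZT7, -0.04 at ZT8, 0.08 at ZT9, 0.31 at ZT10, 0.02 at ZT11 and -0.11 at ZT12. Of the 10 hours, ZT10 was the highest for 8.64% of all genes tested.

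**Figure D5:**
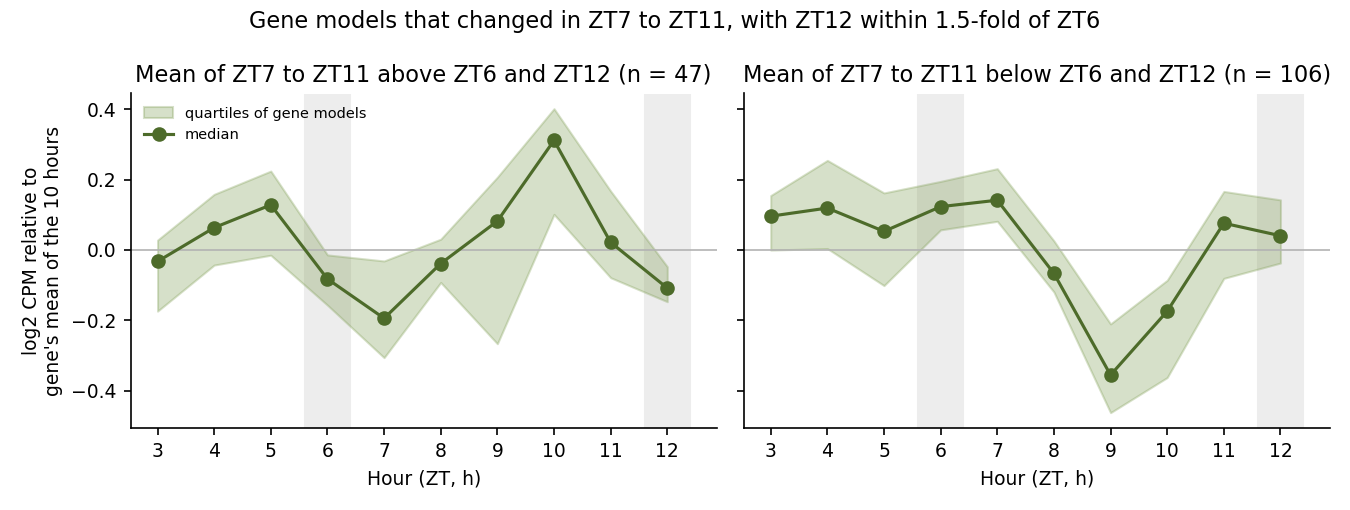
Median (line) and quartiles (band) over gene models of log2 CPM relative to the gene's mean of the 10 hours (y axis) by hour (x axis, ZT in h). The mean of ZT7 to ZT11 lay above that of ZT6 and ZT12 in 47 gene models (left) and below it in 106 (right), and grey bands mark ZT6 and ZT12. The left group is lowest at ZT7 with a median of -0.19 and peaks at ZT10 with 0.31, and the right group is lowest at ZT9 with -0.36.

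NVE25369 was one of the 2 named gene models that returned from below. At ZT6 it stood at 2419, 2550, 2336 and 2296 CPM in the single animals A to D and at 2646 and 2322 CPM in the pools F and G. At ZT12 it stood at 1808, 2105, 2004 and 1945 CPM in the single animals A to D and at 2860, 2642 and 2410 CPM in the pools E to G. The ZT12 single animals lay below all ZT6 libraries and the ZT12 pools did not, and the test of that difference between sample types did not pass (0.37 log2 units, SE 0.25, edgeR adjusted p = 0.695). The change was -0.13 log2 units (95% interval -0.37 to 0.11). In between, its hourly mean fell to 1419 ± 153 CPM at ZT9 and stood at 1792 ± 368 at ZT10 and 2190 ± 143 at ZT11 (SD, n = 7 each, edgeR adjusted p over ZT7 to ZT11 = 0.000322).

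NVE18688 also went down and came back. It ran from 386 to 786 CPM at ZT6, with a median of 585, and from 487 to 777 CPM at ZT12, with a median of 617. The 2 hours overlapped almost wholly, and the change was 0 log2 units (95% interval -0.46 to 0.47). It stood at 664 ± 213 CPM at ZT7, 234 ± 69.5 at ZT9 and 409 ± 119 at ZT11 (SD, n = 7 each, edgeR adjusted p over ZT7 to ZT11 = 0.000322). It had been low once before, at 318 ± 130 CPM at ZT5 (SD, n = 7).

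Among those whose mean of ZT7 to ZT11 lay above that of the ends, the leading gene models were NVE2508 and NVE761, both highest at ZT10. NVE2508 stood at 162 ± 37.6 CPM at ZT6 (SD, n = 6), 251 ± 109 at ZT10 and 148 ± 19.8 at ZT12 (SD, n = 7), with a change from ZT6 to ZT12 of -0.13 log2 units (95% interval -0.51 to 0.26). NVE761 stood at 84.6 ± 16.6 CPM at ZT6 (SD, n = 6), 137 ± 38.5 at ZT10 and 90.7 ± 7 at ZT12 (SD, n = 7), with a change of 0.12 (95% interval -0.18 to 0.43). In both the spread at ZT10 was the widest of ZT6, ZT10 and ZT12. Neither stayed above both ends from ZT7 to ZT11. NVE2508 stood at 131 ± 41.6, 150 ± 19.2 and 137 ± 41 CPM at ZT7, ZT8 and ZT9, and at 184 ± 23.7 at ZT11 (SD, n = 7 each). NVE761 stood at 95.6 ± 24.7, 88 ± 13.2, 83.9 ± 16.4 and 94 ± 11.1 CPM at these hours (SD, n = 7 each). The edgeR adjusted p over ZT7 to ZT11 was 0.00174 and 0.00366.

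ZT9, the middle hour, was also set against the mean of both ends. This contrast uses the ZT6 and ZT12 libraries and is given beside the main one without an overlap. In it 167 gene models were higher at ZT9 (1.53% of those tested) and 463 lower (4.24%). The balance of directions shifted with the score on the axis of variation between animals (described below) as a covariate: 569 higher and 664 lower. Without the 4 ZT6 and ZT12 libraries high on it, 599 were higher and 519 lower. That fit kept all 7 ZT9 libraries, in which NVE20622, a gene model that follows the axis, reached 3108 CPM. The ends had then lost their libraries high on the axis and ZT9 had not, so these last counts cannot show how the balance depends on it. NVE12346 stood at 24.01 ± 7.92 CPM at ZT6 (SD, n = 6), 110 ± 46.8 at ZT9 and 48.2 ± 13.5 at ZT12 (SD, n = 7), a log2 difference of 1.66 from the mean of the ends (SE 0.27, edgeR adjusted p = 8.72e-05). NVE458 went from 15.1 ± 5.15 to 41.2 ± 21.1 and 21.7 ± 7.22 CPM over the same hours (1.19, SE 0.24, edgeR adjusted p = 0.00144). Lower at ZT9 were NVE25369, described above (-0.72, SE 0.1, edgeR adjusted p = 3.36e-05), and NVE19274. The latter stood at 144 ± 39.9 CPM at ZT6 (SD, n = 6), 49.3 ± 13.2 at ZT9 and 117 ± 28 at ZT12 (SD, n = 7), a difference of -1.4 (SE 0.21, edgeR adjusted p = 4.3e-05). At ZT12, NVE12346 and NVE458 were above ZT6 and NVE19274 below it by amounts that did not pass (edgeR adjusted p = 0.132, 0.454 and 0.605).

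A block of gene models that varies strongly between animals of the same hour ran across the 13 libraries. The leading axis of variation within hours scored 68.2 in the ZT6 single animal D, 24.7 in B, 70.6 in the ZT12 pool G and 35.5 in the ZT12 single animal C, and between -28.2 and -14.1 in the other 9. NVE20622, which follows this axis, stood at 1595, 704, 2091 and 832 CPM in these 4 libraries and at most at 10.4 CPM in the other 9, with 0 counts in 3 of them. Its change from ZT6 to ZT12 was 0.2 log2 units (SE 2.01, edgeR adjusted p = 0.992). None of the 209 called gene models correlated above 0.7 with the axis, while 811 of the genes tested (7.43%) did. Gene models that follow the axis vary widely within an hour and so could hardly be called. The absence therefore does not show that the calls are independent of the axis. Without these 4 libraries no gene model was called in edgeR, with 1070 at an unadjusted p below 0.05 and a smallest adjusted p of 0.0518. The same gene models then had medians of 0.92 for the 51 and -1.12 for the 158, while the median SE went from 0.24 to 0.28 and from 0.29 to 0.35. They had been chosen with the remaining 9 libraries in the fit, which favours medians of this size. Why the calls were lost was not tested. With the axis score as a covariate and all libraries, 86 rose and 208 fell.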

How the data were processed

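Per the labels' protocols, RNA of whole animals kept in RNAlater was extracted and made into libraries after Meyer and colleagues. The deposited values are counts per gene model, which the authors aligned with Bowtie2 (per the submitters' processing notes, no version) to the genome of Putnam and colleagues (per the labels). The counting tool, annotation version and duplicate handling are not given in the sources used here. Amplified copies may therefore be counted, and related gene models may share reads. Of 24265 gene models, 10916 with 97.2% of counts passed edgeR's filter (minimum count 10). A RefSeq table of jaNemVect1.1 held none of the identifiers. Tests used edgeR 4.0.16 in R 4.3.3 (TMM factors, robust quasi-likelihood F test, Benjamini-Hochberg adjustment over all genes tested, threshold 0.05), with DESeq2 1.42.0 and limma 3.58.1 as alternatives. Log2 CPM used a prior count of 2. SEs and 95% intervals came from the unshrunken estimate and its F statistic. The axis is the leading singular vector of what hour and sample type leave of log2 CPM; its hourly means are 0 by construction, so it was not compared between hours. The fits were also run on simulated counts. These were drawn independently for each gene model, with no axis shared between libraries, so they cannot show how the calls behave under such variation. Over 78 pairs of the 13 libraries the lowest chi-square per degree of freedom was 2.78, so all were counted apart. With no names, at most 2 identifiers higher and 2 lower with the smallest p are named per comparison; NVE20622 was taken from earlier results. The comparison, tests and rules were chosen with earlier results of these data known.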

Additional observations from a re-analysis of the deposited data

Results flagged for a closer look

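Named gene models and library measures were checked within ZT6 and within ZT12 for a library set apart by Dixon's criterion at 95%. In 6 of 44 checks there was one, where chance picks out about 1 in 20 and genes of the same libraries are not independent. NVE15059 stood at 108.3 CPM in the ZT12 pool E, with the other ZT12 libraries at 43.2 to 61.7 CPM. NVE3918 stood at 134.3 CPM in the ZT12 single animal A, with the others at 27.6 to 65.6 CPM. NVE458 reached 36.2 CPM in the ZT12 pool G, above 15.1 to 23.8 CPM. NVE20622 reached 2091 CPM in the same pool, above 0 to 832 CPM. At ZT6, NVE19274 stood at 219.2 CPM in the pool G, above 109.4 to 149.4 CPM, and NVE2508 at 233.8 CPM in the single animal C, above 122.7 to 161.9 CPM.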

How the results depend on the processing

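The 4 gene models named for ZT12 against ZT6 kept their direction under every alternative run, and their edgeR call under all but 2: the fit without the 4 libraries high on the axis (adjusted p = 0.0518 to 0.103) and, for NVE15059, the 13 libraries alone (adjusted p = 0.0564). Counts of calls moved more. The labels give replicate letters but not what they mark, and of 6 same-letter pairs 1 had deviations correlated above 0.1 and 0 libraries correlated best with their own letter. With the letter as a replicate block, 48 rose and 164 fell, and only the difference from ZT10 minus ZT4 moved beyond 1.5 times (19). DESeq2 gave 85 rises, 251 gene models higher at ZT9 than the ends, 7 and 113 differing from ZT9 minus ZT3 and ZT10 minus ZT4, 49 for ZT11 against ZT7, 53 rises and 171 falls in single animals, 31 calls in pools and 29 for the interaction. Limma with quality weights gave 246 returning gene models, 266 higher at ZT9, 423 for ZT10 against ZT4, 84 differing from it, 44 for ZT11 against ZT7, and 39 rises and 116 falls in single animals. With no filter there were 6 rises, 50 falls, 47 returning, 226 lower at ZT9, 274 moving in ZT7 to ZT11, 67 for ZT10 against ZT4, 57 for ZT11 against ZT5, 3 differing from ZT10 minus ZT4, 4 for ZT11 against ZT7, and 8 rises and 32 falls in single animals. The 13 libraries alone gave 13 and 56, and the 8 single-animal libraries alone 0 and 1. The axis covariate gave 86 rises, 323 returning, 569 higher at ZT9, 1505 moving in ZT7 to ZT11, 423 for ZT10 against ZT4, 7 and 97 differing from ZT9 minus ZT3 and ZT10 minus ZT4, and 28 for ZT11 against ZT7. Thinned counts gave 96 returning. A 2-fold margin put 5725 gene models within it. Chosen after the data were seen, leaving out the 4 ZT6 and ZT12 libraries high on the axis gave 0 rises, 0 falls and 897 within 1.5-fold. It also gave 599 higher and 519 lower at ZT9, whose own libraries were all kept. Leaving out single libraries gave 11 to 73 rises and 49 to 209 falls; 1 to 81 and 4 to 200 in single animals; 0 to 1 in pools; 424 to 972 moving in ZT7 to ZT11; and 101 to 227 returning. The cause of these shifts was not tested. For 9134 gene models the change neither passed the adjusted test nor had an interval wholly within 1.5-fold.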
